A study of Mus musculus with 4 samples.

Results

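The doublecortin, Lis1 and reelin pathway was examined in sorted neurons through 10 genes chosen by symbol, which were Dcx, Dclk1, Pafah1b1, Ndel1, Cdk5, Cdk5r1, Reln, Vldlr, Lrp8 and Dab1. All 10 were listed in each library, among 34968 symbols shared by all 4 libraries, and all 10 were among the 12975 genes tested, which had at least 1 TPM, a transcript level corrected for transcript length and library total, in at least 2 libraries. The neurons were differentiated for 12 days in embryoid bodies from mouse ES cells of strain C57/BL6, all derived from a Dlx6-Cre; Ai9 parental line, and were sorted for tdTomato, which that Cre turns on in subpallial lineages. The N/D line carries Nkx2-1 driven from Nestin sequences together with Dlx2 under a tetracycline-responsive element, and the N/D/S line carries the same Nkx2-1 and a Dlx2 cassette that also holds St18. Both groups received the Wnt inhibitor XAV-939 and the Sonic hedgehog agonist SAG. Each line was grown from selected ES cell clones and gave 2 libraries, numbered replicate 1 and replicate 2, so a difference between lines cannot be told apart from a difference between clones. Nothing in the labels says that the replicates were separate differentiations, and p-values therefore measure only the spread between these libraries.

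These genes act on how a young neuron moves. Doublecortin binds and stabilises microtubules in the leading process, while Lis1, the product of Pafah1b1, works with Ndel1 and the dynein motor to pull the nucleus and centrosome forward, and Cdk5 with its activator phosphorylates several of these proteins. Reelin is a secreted glycoprotein, made in the embryonic cortex mainly by Cajal-Retzius cells, that binds the receptors Vldlr and ApoER2 (the product of Lrp8) and leads to phosphorylation of the adaptor Dab1 inside the migrating cell. In the study, the 2 lines were compared because St18 is a transcription factor of the medial ganglionic eminence, whose neurons migrate either far into the cortex or a short way into subcortical nuclei.

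The libraries differed in ways that the lines do not explain. In the library labelled N/D replicate 1, 613 of the 6139 genes that reached 10 TPM in all 3 remaining libraries were at 0, and the same count gave 0 to 2 genes for each of those. St18 itself was measured at 28.5 and 26.6 TPM for N/D and at 44.5 and 15.9 TPM for N/D/S (replicate 1, then 2), so its TPM did not separate the lines and directions are given as the libraries are labelled. The files numbered replicate 1 list other symbols than those numbered replicate 2 (203 and 210 found only there), and differences within a replicate number are therefore given beside the pooled ones. As a check of the neuron label, Tubb3, a neuronal tubulin, had 1509 to 2774 TPM, and all 10 neuron markers had at least 1 TPM in each library. Depth is unknown, since TPM values keep no read counts. In these bulk samples, fewer cells of a type and less RNA per cell cannot be told apart.

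Promoter windows were at hand for 8 of the 10 genes. The search used letters of the Myt1-family type, for St18, and of the Dlx type, for Dlx2, and none chosen for Nkx2-1. Windows holding such letters are shown, for Dcx only the more upstream of the overlapping ones. They are RefSeq sequences of GRCm38.p6, from 250 bases before to 50 after an annotated start, read 5′ to 3′ on the strand of the gene. Capitals mark AAGTT, a core bound by zinc fingers of the Myt1 family to which St18 belongs, or TAATTA, a homeodomain-type sequence, on either strand. Dcx lies at chrX:143933170-143933469 (minus strand), Dclk1, at the downstream of its starts, at chr3:55461478-55461777, Lrp8 at chr4:107802635-107802934 and Vldlr at chr19:27216234-27216533 (all plus).
Dcx: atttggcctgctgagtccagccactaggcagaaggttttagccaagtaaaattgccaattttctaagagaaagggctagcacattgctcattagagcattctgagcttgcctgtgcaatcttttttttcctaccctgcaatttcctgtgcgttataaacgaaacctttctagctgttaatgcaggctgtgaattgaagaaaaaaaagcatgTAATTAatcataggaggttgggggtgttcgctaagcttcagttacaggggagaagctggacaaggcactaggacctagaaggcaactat
Dclk1: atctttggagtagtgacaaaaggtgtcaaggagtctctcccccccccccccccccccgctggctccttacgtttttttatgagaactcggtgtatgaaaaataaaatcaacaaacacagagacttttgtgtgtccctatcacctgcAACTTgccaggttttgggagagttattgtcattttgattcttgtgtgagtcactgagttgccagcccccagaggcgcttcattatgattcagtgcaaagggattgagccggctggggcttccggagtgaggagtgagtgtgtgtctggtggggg
Lrp8: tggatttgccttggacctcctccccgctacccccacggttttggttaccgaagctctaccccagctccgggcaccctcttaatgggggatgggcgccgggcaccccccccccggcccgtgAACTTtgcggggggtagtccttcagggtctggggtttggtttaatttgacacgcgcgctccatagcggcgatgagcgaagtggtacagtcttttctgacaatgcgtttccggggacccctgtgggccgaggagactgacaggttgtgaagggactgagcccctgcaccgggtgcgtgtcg
Vldlr: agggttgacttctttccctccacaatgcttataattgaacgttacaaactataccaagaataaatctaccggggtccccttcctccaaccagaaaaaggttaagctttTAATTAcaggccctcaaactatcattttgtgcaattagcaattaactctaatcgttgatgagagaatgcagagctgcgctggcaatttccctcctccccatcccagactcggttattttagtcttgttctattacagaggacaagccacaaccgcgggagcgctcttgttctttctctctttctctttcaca

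AAGTT was present in 2 of the 14 windows of these genes, in Dclk1 and Lrp8, against 39.3% of all 32851 windows. TAATTA was present in 3 of the 14, the overlapping Dcx windows and 1 Vldlr window, against 5.29% of all windows, and the longer Myt1-type form AAAGTTT was in none of the 14 against 4.74%. These are matches of letters, and binding was not measured. The windows of Reln and of the second Dab1 start were rich in G and C, at 80.7% and 77.3%, and those of Dcx were not, at 43.0% and 44.7%.

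No difference in these 10 genes between N/D/S and N/D neurons passed the test. By limma, with p-values adjusted over all genes and a threshold of 0.05, 0 were higher and 0 lower in N/D/S, as were 0% and 0% of all 12975 genes. No member had an unadjusted p under 0.05, and 8 genes of the whole table did. A two-sided exact permutation test of 2 libraries against 2 cannot give a p under 0.333. Of the 10 log2 fold changes (N/D/S relative to N/D), 6 were below 0 and 4 above, from −1.16 for Dab1 to 0.78 for Vldlr. Their median was −0.33, beside 0.26 over all genes tested, and neither median was stable. With 1 library left out, that of the members was −0.66 when N/D/S replicate 1 was dropped and turned to 0.33 when it was N/D/S replicate 2. That of all genes turned to −0.29 with N/D replicate 1 dropped, and it was 0.88 when the other N/D library was. In no member did both N/D/S libraries lie above both N/D libraries, which held for 8.69% of all genes, and in no member did both lie below, which held for 8.23%. The residual standard deviation between libraries of a line had a median of 1.09 log2 units over the 10 genes, against 1.03 over all genes.

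**Figure D1:**
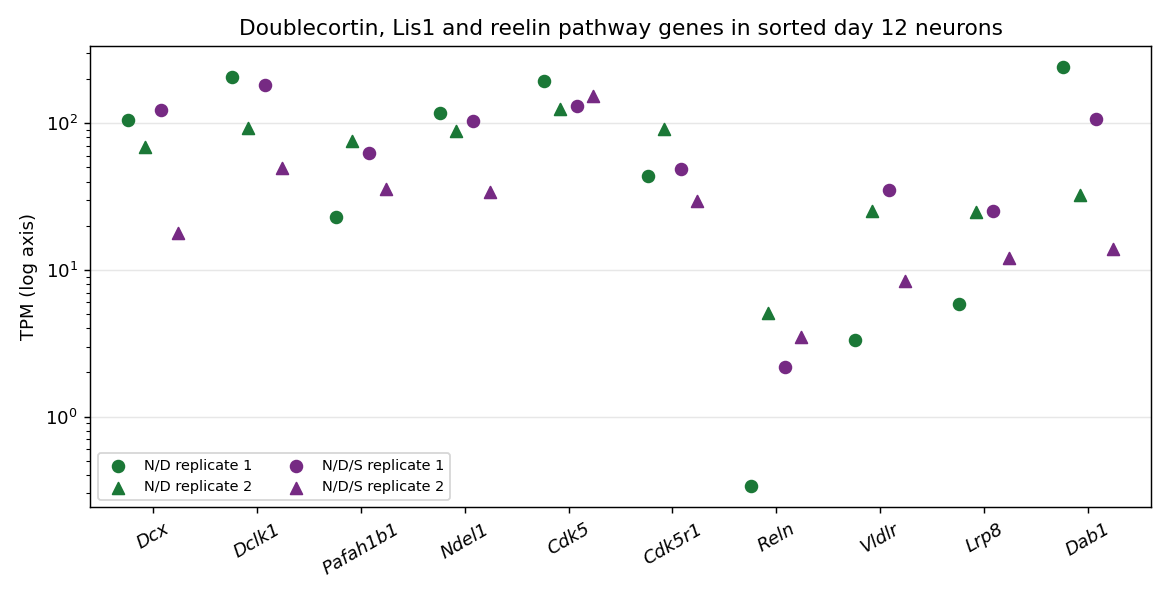
TPM of each gene in each library, on a log axis (green, N/D; purple, N/D/S; circles, replicate 1; triangles, replicate 2). Green and purple points overlap in every gene, the N/D/S replicate 2 triangle is lowest for Dcx at 17.9 TPM, and Reln lies lowest of the genes at 0.334 to 5.11 TPM.

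The microtubule-binding genes Dcx and Dclk1 were strongly expressed and lay further apart between the N/D/S libraries than between the N/D libraries. Dcx (chromosome X, 143855842 to 143933311, GRCm38, minus strand, 6 annotated transcripts) had 105 and 69.0 TPM in N/D replicates 1 and 2 and 122 and 17.9 TPM in N/D/S replicates 1 and 2. The N/D/S libraries thus held both its highest and its lowest value, 6.83-fold apart, with the N/D libraries between them. Its mean was 86.8 ± 25.2 TPM for N/D against 70.2 ± 73.9 TPM for N/D/S (SD, n = 2 each). The log2 fold change was −0.83 (standard error 1.21, 95% interval −3.68 to 2.02, adjusted p = 1 from limma), and without the library labelled N/D/S replicate 2 it was 0.52.

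Dclk1 (chromosome 3, 55242364 to 55539068, plus strand, 15 transcripts), whose long products join doublecortin-like domains to a kinase, had 205 and 92.7 TPM in N/D and 183 and 49.3 TPM in N/D/S, in replicate order. Its order across libraries was close to that of Dcx, with both replicate 1 libraries above both replicate 2 libraries and N/D/S replicate 2 lowest. The log2 fold change was −0.53 (standard error 1.12), which turned to 0.036 when N/D replicate 1 was left out and to 0.40 when N/D/S replicate 2 was left out. Dclk1 exceeded Dcx in each library, by a ratio of 1.34 to 2.75. In the paralog Dclk2 the values were 58.9 and 84.7 TPM in N/D and 130 and 37.1 TPM in N/D/S, while Dclk3 was at 1.99 TPM or less in each library and was not tested. Dclk1 shares 114 exonic bases with genes on the other strand, and whether reads were assigned by strand is not given in the sources used here.

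Lis1 and its partner Ndel1 differed in their order across the libraries. Pafah1b1 (chromosome 11, 74673949 to 74724670, minus strand, 5 transcripts) had 23.1 and 75.6 TPM in N/D and 62.5 and 35.4 TPM in N/D/S. The N/D libraries were the extremes and the N/D/S libraries lay between them, so that the means, 49.3 ± 37.1 TPM for N/D and 49.0 ± 19.2 TPM for N/D/S (SD, n = 2 each), were nearly the same. The log2 fold change of 0.16 (standard error 1.07) turned to −0.67 without N/D replicate 1 and to −0.24 without N/D/S replicate 1. The processed pseudogenes Pafah1b1-ps1 and Pafah1b1-ps2, which could share reads with it, were listed at 0 in each library.

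Ndel1 (chromosome 11, 68821434 to 68871858, minus strand, 6 transcripts), which links Lis1 to dynein, had 117 and 87.7 TPM in N/D and 103 and 33.7 TPM in N/D/S. As in Dcx and Dclk1, the lowest value was that of N/D/S replicate 2. The log2 fold change was −0.77 (standard error 1.05), and 0.022 without that library. Ndel1 over Pafah1b1 was 5.05 in N/D replicate 1 and between 0.95 and 1.64 in the other libraries. The paralog Nde1, by contrast, had only 0.039 TPM in N/D replicate 1 and 8.64 to 16.9 TPM elsewhere.

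In TPM, Cdk5 was the steadiest of the genes. This kinase (chromosome 5, 24418241 to 24423530, minus strand, 3 transcripts) had 193 and 124 TPM in N/D and 131 and 153 TPM in N/D/S, a range of 1.56-fold over the 4 libraries, where the other members ranged from 3.12-fold to 17.3-fold. Its log2 fold change was −0.13 (standard error 0.97, 95% interval −2.42 to 2.17), an interval wide enough to hold a several-fold change in either direction. Its longest transcript, of 2059 bases, is also the shortest among the longest transcripts of the 10 genes.

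Cdk5r1 (chromosome 11, 80477023 to 80481184, plus strand, 2 transcripts), the main neuronal activator of Cdk5, had 43.5 and 91.6 TPM in N/D and 48.9 and 29.4 TPM in N/D/S. N/D replicate 2 stood above the others. Cdk5r1 had the only log2 fold change of the 10 that kept its sign in every alternative run, at −0.72 (standard error 1.01, adjusted p = 1 from limma) and between −1.25 and −0.19 with 1 library left out. Within replicate numbers the sign did turn, with log2 differences of 0.17 in replicate 1 and −1.61 in replicate 2. Cdk5 exceeded its activator in each library, by a ratio of 1.36 in N/D replicate 2 to 5.22 in N/D/S replicate 2. The second activator, Cdk5r2, was at 3.10 to 6.55 TPM, and Cdk5r1 over Cdk5r2 ranged from 4.49 to 25.8.

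**Figure D2:**
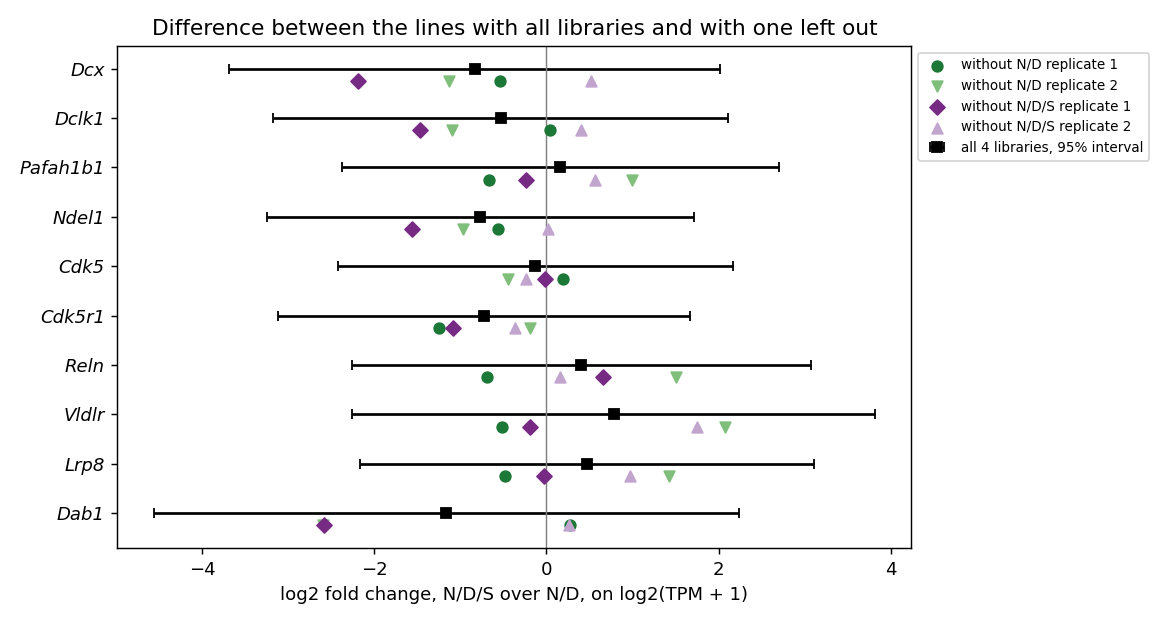
Log2 fold change (N/D/S relative to N/D) on the log2(TPM + 1) scale for each gene (black squares and bars, all 4 libraries with 95% interval; coloured points, 1 library left out). Every interval spans 0, the points of 9 genes fall on both sides of 0 and those of Cdk5r1 stay between −1.25 and −0.19; for Dab1 the points coincide in pairs, near −2.6 and near 0.3.

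The reelin arm had a scarce ligand, receptors at low to moderate levels and an adaptor that exceeded the summed receptors in the replicate 1 libraries and lay below them in the replicate 2 libraries. Reln (chromosome 5, 21884454 to 22344702, minus strand, 15 transcripts) had 0.334 and 5.11 TPM in N/D and 2.18 and 3.51 TPM in N/D/S. It was the lowest of the 10 genes in each library, and both of its extremes were N/D libraries, 15.3-fold apart. The log2 fold change, 0.41 (standard error 1.13), was −0.69 without N/D replicate 1, and it was 0.60 and 0.93 when 0.5 and 0.1 were added to TPM in place of 1. Reln had at least 1 TPM in 3 libraries, and 246 of its exonic bases lie opposite an annotated antisense gene. The 8 markers of Cajal-Retzius cells summed to 383 and 247 TPM for N/D and 287 and 182 TPM for N/D/S. Of these, the defining Trp73 was at 0 in 3 libraries and at 0.01 TPM in the fourth, and Tbr1 was at 0.52 TPM or less. Ebf3, Lhx5 and Calb2, which other neurons also express, were highest in N/D replicate 1, at 56.1, 45.0 and 115 TPM, whereas Lhx1, Cdkn1a and Ndnf were not, at 35.6, 131 and 0.55 TPM there against up to 63.7, 141 and 1.43 TPM elsewhere.

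The reelin receptors shared an order across the libraries. Vldlr (chromosome 19, 27216484 to 27254231, plus strand, 8 transcripts) had 3.34 and 25.2 TPM in N/D and 34.8 and 8.35 TPM in N/D/S. Lrp8 (chromosome 4, 107802261 to 107876840, plus strand, 12 transcripts) had 5.88 and 24.8 TPM in N/D and 25.2 and 12.0 TPM in N/D/S. For both, N/D replicate 1 was lowest, N/D/S replicate 2 next and N/D/S replicate 1 highest, and Vldlr over Lrp8 stayed between 0.57 and 1.38. Their log2 fold changes were 0.78 (standard error 1.29) and 0.47 (standard error 1.11), and without N/D replicate 1 these became −0.52 and −0.48.

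Dab1 had the widest range of the 10 genes. This adaptor (chromosome 4, 103619359 to 104744844, plus strand, 8 transcripts) had 242 and 32.3 TPM in N/D and 107 and 14.0 TPM in N/D/S. Both replicate 1 libraries were above both replicate 2 libraries, with a 17.3-fold range. The log2 fold change was −1.16 (standard error 1.44, 95% interval −4.56 to 2.24, adjusted p = 1 from limma), the lowest of the members and at the 5.24th percentile of all genes tested. It was −2.60 without N/D replicate 2 (unadjusted p = 0.0237, adjusted p = 0.0996 from limma with the lone N/D library taken to vary like the N/D/S libraries), and 0.27 without N/D replicate 1. Within a library, Dab1 over the sum of Vldlr and Lrp8 was 26.2 for N/D replicate 1 and 1.77 for N/D/S replicate 1, and it was 0.65 and 0.68 for the replicate 2 libraries (N/D, then N/D/S). N/D replicate 1 therefore held the most Dab1 and the least of both receptors.

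**Figure D3:**
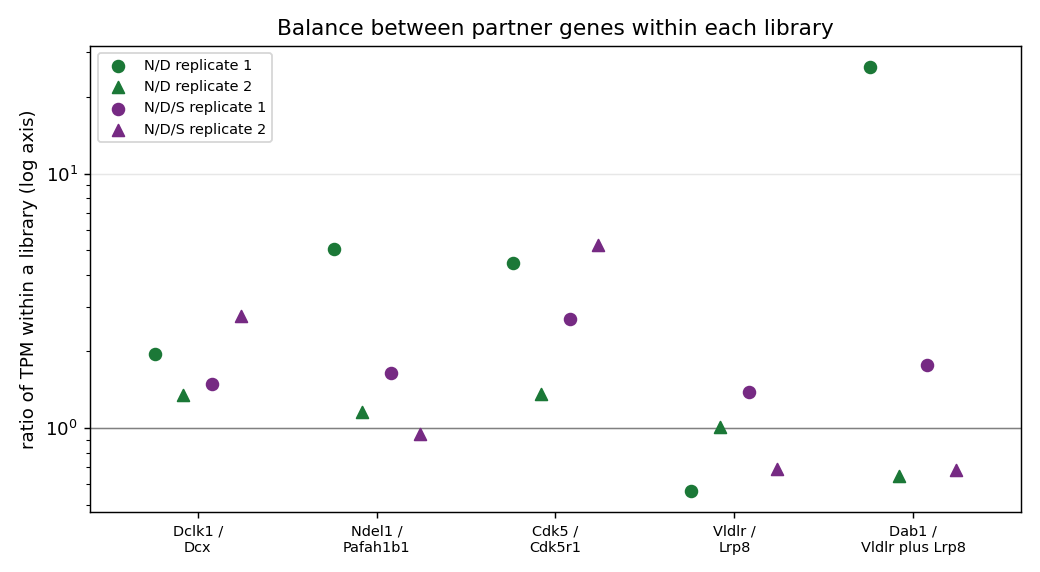
Ratio of TPM between partner genes within each library, on a log axis with 1 marked by a line (colours and symbols for line and replicate as in the legend). Ratios of Dab1 to its receptors span 0.65 to 26.2, those of Ndel1 to Pafah1b1 span 0.95 to 5.05, and those of Vldlr to Lrp8 stay within 0.57 to 1.38.

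Ordered by median TPM over the 4 libraries, Cdk5 (142) was followed by Dclk1 (138), Ndel1 (95.2), Dcx (86.8), Dab1 (69.4), Pafah1b1 (49.0), Cdk5r1 (46.2), Lrp8 (18.4), Vldlr (16.8) and Reln (2.84). Of the 9 pairs of neighbours in that order, only Cdk5r1 and Lrp8 had ranges that did not overlap. Dclk1 was above Ndel1, and Vldlr above Reln, in 4 of 4 libraries, although the ranges of both pairs overlapped. The microtubule, dynein and kinase genes thus stood above the receptors and the ligand. Among the genes tested, Cdk5 lay between the 88.1st and 92.3rd percentile of a library and Reln between the 11.2nd and 38.8th. The 38.8th was in N/D replicate 1, where Reln had its lowest level, 0.334 TPM, and 3389 of the genes tested were at 0.

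Within replicate numbers, the differences between the lines mostly changed sign. For 7 of the 10 genes the N/D/S minus N/D difference had opposite signs in replicates 1 and 2, as it did for 65.6% of all genes. Dclk1, Ndel1 and Dab1 were lower in N/D/S in both, at log2 differences of −0.16 and −0.90, −0.18 and −1.35, and −1.17 and −1.15. That is 3 of 10 genes beside 17.9% of all genes, and 0 were higher in both beside 15.9%. Dab1 was the only member whose difference was of like size in both replicate numbers.

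With N/D replicate 1 set aside, Pafah1b1, Cdk5r1 and Reln were higher in N/D replicate 2 than in both N/D/S libraries, as were 31.9% of all genes, and Cdk5 was lower, as were 13.3%. The other 6 had N/D replicate 2 between the N/D/S libraries. Which library was lowest followed the gene. Pafah1b1, Reln, Vldlr and Lrp8 were lowest in N/D replicate 1, as were 58.2% of all genes, whereas Dcx, Dclk1, Ndel1, Cdk5r1 and Dab1 were lowest in N/D/S replicate 2, as were 29.2%.

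By replicate number, 5 of the 10 genes separated the libraries, where 0 did so by line. Dcx, Dclk1, Ndel1 and Dab1 were higher in both replicate 1 libraries than in both replicate 2 libraries, 4 of 10 beside 14.8% of all genes, and Reln was lower in both, beside 14.7%. Pluripotent and glial markers differed along the same split, and those of other cells did so in part. The summed level of 7 pluripotent cell markers was 0.25 and 3.96 TPM in the replicate 1 libraries (N/D, then N/D/S) and 186 and 293 TPM in the replicate 2 libraries, mostly from Dppa5a at 164 and 266 TPM, and Pou5f1 was at 7.55 and 19.5 TPM there against 0 and 0.09 TPM. The sum of 10 astrocyte and oligodendrocyte markers was 5.31 and 19.8 TPM in replicate 1 and 221 and 87.7 TPM in replicate 2, 9 of the 10 were at 0 in N/D replicate 1, and 8 were higher in both replicate 2 libraries. The sum of 10 progenitor and dividing cell markers was 489 and 542 TPM against 1286 and 737 TPM, mostly from Fabp7 at 134 and 179 TPM against 906 and 506 TPM, and without it 356 and 363 TPM against 379 and 231 TPM. Of these 10, Fabp7 and Ccnb1 were higher, and Vim, Pax6 and Hes1 lower, in both replicate 2 libraries. The sum of 10 neuron markers was 5220.3 and 5889 TPM against 3570.4 and 3449.5 TPM. Only 4 of these 10 were lower in both replicate 2 libraries, and 0 were higher. Elavl3, Rbfox3, Snap25 and Syt1 were highest in N/D replicate 2. The sum of 8 mesenchymal and endothelial markers was 38.8 and 13.4 TPM against 40.3 and 32.5 TPM. In N/D replicate 1 it was nearly all the endothelial Pecam1, at 38.75 TPM. Without Pecam1 the sums were 0.088 and 8.28 TPM against 37.9 and 24.4 TPM. The part of other cells in the levels of Dcx, Dclk1, Ndel1 and Dab1 was not tested.

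**Figure D4:**
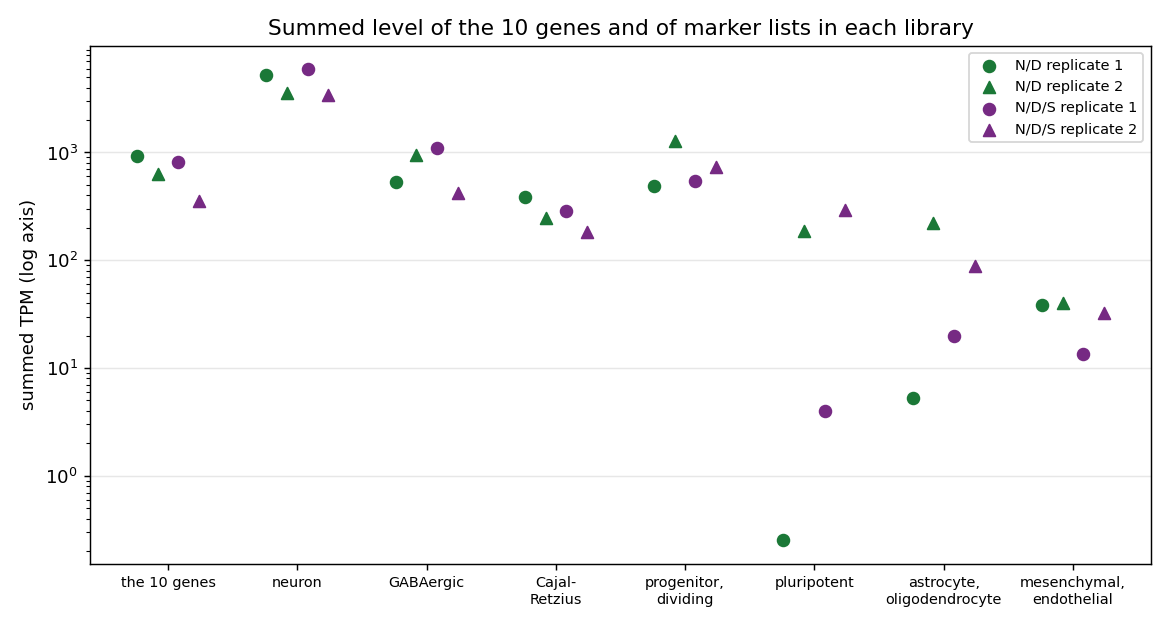
Summed TPM of the 10 genes and of 7 marker lists in each library, on a log axis (green, N/D; purple, N/D/S; circles, replicate 1; triangles, replicate 2). The pluripotent sum is 0.25 and 3.96 TPM in replicate 1 and 186 and 293 TPM in replicate 2, while the 10 genes sum to 937 and 819 TPM in replicate 1 and 628 and 357 TPM in replicate 2.

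Set against neuron markers, the low Dcx of N/D/S replicate 2 depended on which markers were summed. Of the 10 neuron markers, 9 were lowest in that library, among them the RNA-binding protein genes Elavl4 and Rbfox3 at 103 and 12.3 TPM and the cytoskeletal genes Map2 and Nefm at 80.5 and 16.9 TPM. Tubb3 was not, at 2455 TPM, and it made up 71.2% of the sum there against 39.2% to 47.1% elsewhere. Per 1000 TPM of summed neuron markers, a measure chosen after the values were seen, Dcx came to 20.1 and 19.3 TPM in N/D replicates 1 and 2, 20.8 TPM in N/D/S replicate 1 and 5.20 TPM in N/D/S replicate 2. Summed without Tubb3, also chosen after the values were seen, Dcx came to 33.0 and 33.5 TPM for N/D, in replicate order, and 39.3 and 18.0 TPM for N/D/S. N/D/S replicate 2 was lowest both ways, but the range narrowed from 4.0-fold to 2.18-fold. On the sum without Tubb3, Dclk1 and Ndel1 ranged 1.43-fold and 1.29-fold, against 4.15-fold and 3.46-fold in TPM. On the sum of all 10 markers they ranged 2.74-fold and 2.51-fold. Dab1 ranged 5.42-fold without Tubb3 and 11.4-fold with it, against 17.3-fold in TPM. Without Tubb3 the ranges of the other 6 genes widened, as for Cdk5 from 1.56-fold to 3.67-fold and for Reln from 15.3-fold to 33.5-fold. Stmn2 made up much of the sum without Tubb3, at 606 of 994 TPM in N/D/S replicate 2. GABAergic markers followed another order, summing to 531 and 941 TPM in N/D and 1102 and 425 TPM in N/D/S.

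The longest annotated transcript of 7 of the 10 genes falls in the longest 25% of the genes tested, at 4733 bases or more. These are Dcx, Dclk1, Pafah1b1, Reln, Vldlr, Lrp8 and Dab1. Genes of that class were low in 2 libraries. Their median log2 difference from the mean of the other libraries was −1.27 in N/D replicate 1 and −0.58 in N/D/S replicate 2, against 0.75 in N/D replicate 2 and 0.98 in N/D/S replicate 1, while for the shortest 25% of genes it was between −0.42 and 0.26. After the median of genes of like length was taken off, the log2 fold change was −1.11 for Dcx, −1.54 for Dab1 and 0.57 for Vldlr, that of Pafah1b1 went from 0.16 to −0.045, that of Lrp8 from 0.47 to 0.035 and that of Cdk5 from −0.13 to −0.48. The median of the 10 genes became −0.61, where that of all genes is 0 by construction. The part of transcript length in the levels of the 10 genes was not tested beyond this.

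Other genes of both pathways were read from lists. Of 18 tested partners of doublecortin, Lis1 and dynein, 0 were higher and 0 lower at the adjusted threshold of limma, 12 had a log2 fold change above 0 and 6 below, beside 7967 and 5008 of all 12975 genes, and the median was 0.12, beside 0.26. Their levels were high for Pafah1b3, a catalytic partner of Lis1, at 655 to 1337 TPM, for the 14-3-3 protein gene Ywhae at 777 to 1330 TPM and for the dynein light chain gene Dynll1 at 933 to 1145 TPM. Dynein heavy chain, Dync1h1, had 3.16 TPM in N/D replicate 1, 3.95 TPM in N/D/S replicate 2 and at least 22.9 TPM in the others.

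Of 22 other reelin pathway genes, 0 were higher and 0 lower at that threshold, 11 had a log2 fold change above 0 and 11 below, and the median was 0.14. Pik3r2, a regulatory subunit of PI3 kinase, and Itga3, an integrin subunit, had both N/D/S libraries above both N/D libraries and a log2 fold change of at least 1 (3.70 and 2.16). That is 2 of 22 genes with both N/D/S libraries above, beside 8.69% of all genes. In N/D, Pik3r2 was listed at 0 and at 88.0 TPM, against 133 and 112 TPM for N/D/S. In N/D, Itga3 was listed at 0 and at 8.91 TPM, against 10.2 and 16.8 TPM for N/D/S, so that both values turn on the library labelled N/D replicate 1. Cfl1, the actin-severing cofilin, was the only one of the 22 with both N/D/S libraries below both N/D libraries, beside 8.23% of all genes, at 1548 and 1276 TPM against 2096 and 1755 TPM, with a log2 fold change of −0.45 (standard error 0.96). Fyn, a kinase that phosphorylates Dab1, had 90.8 and 150.1 TPM in N/D and 166 and 45.9 TPM in N/D/S. Cul5, the ubiquitin ligase scaffold that turns over phosphorylated Dab1, had 108 and 41.4 TPM in N/D and 44.3 and 22.4 TPM in N/D/S. N/D replicate 1 was highest, as for Dab1. Rnf7, the RING partner of Cul5, and Socs7, a substrate receptor for Dab1, were instead lowest in N/D replicate 1. They had 143 and 0 TPM there, against at least 220 and 1.56 TPM elsewhere.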

How the data were processed

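RNA of tdTomato+ neurons, sorted on day 12, was sequenced in 2 libraries of each line. The authors deposited 1 file per library with 1 TPM value per gene symbol, from poly-A selected, paired-end reads pseudoaligned with kallisto 0.44.0 (GRCm38 in the submitters' processing notes). How transcripts were combined into genes is not given in the sources used here. TPM keeps no depth, so no interval or detection limit for single values is given.

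Files were joined on symbol, leaving out symbols turned into dates. Lines were compared with limma 3.58.1 in R 4.3.3 on log2(TPM + 1), without covariates, for genes reaching 1 TPM in 2 or more libraries, and p-values were adjusted by Benjamini-Hochberg over all genes, with a threshold of 0.05. Since 1 is added, fold changes understate differences of low genes. Study methods used sleuth, which needs kallisto output not used here. Fits were tested on simulated data. Lengths and positions came from GENCODE M21 (GRCm38). Tables were made in Python 3.11.15 with pandas 2.3.3 and figures with matplotlib 3.10.9.

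The members and lists were chosen with earlier results of these data known. All 10 members were described. Partner genes were named where the lines did not overlap and the log2 fold change was at least 1 in size. Others named there were chosen after their values were seen. Same-numbered libraries had a correlation of 0.02 in their deviations from the line means. With 2 libraries a line, this value cannot settle whether the numbers pair the libraries. The reported fit did not use the number as a pairing. The result for 1 item withheld for evaluation is not reported here. Alternatives are given in the closing section.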

Additional observations from a re-analysis of the deposited data

How the results depend on the processing

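Each of the 10 log2 fold changes between the lines, the counts past the threshold and their medians were recomputed under 14 alternatives, of which scaling to the neuron markers was chosen after the values were seen. Of 223 values, 204 were counted as the same, 15 turned and 4 counts moved, and the cause was not tested. Member fold changes among the 204 kept their direction and call. For the members' median, the same meant a shift under 0.881 log2 units, its standard deviation between libraries of a line. That spread is larger in size than the median itself. The medians of all genes were counted as the same without a comparison. Those 204 include 3 medians whose sign changed. The members' median, −0.33, was 0.33 without N/D/S replicate 2, and that of all genes, 0.26, was −0.29 without N/D replicate 1 and −0.15 with at least 1 TPM in every library (0.02 with no filter, 0.02 when N/D/S replicate 1 was dropped and 0.88 when N/D replicate 2 was). No member passed the adjusted threshold of limma in any alternative, and the lowest adjusted p was 0.0996 (Dab1 without N/D replicate 2). With at least 1 TPM in every library, Reln was not tested.

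Centring on genes of like length turned Pafah1b1 to −0.045. With 1 library left out, Dcx ranged from −2.18 to 0.52, Dclk1 from −1.46 to 0.40, Pafah1b1 from −0.67 to 1.00, Ndel1 from −1.56 to 0.022, Cdk5 from −0.45 to 0.19, Reln from −0.69 to 1.504, Vldlr from −0.52 to 2.08, Lrp8 from −0.48 to 1.43 and Dab1 from −2.60 to 0.27. Over all genes, 0 passed in the reported fit, 6 with a variance trend (none of them a member or listed partner) and from 0 to 2373 with 1 library left out, the highest without N/D replicate 2, where the line is left with the library in which 613 expressed genes were at 0. In that setting 2 of 18 dynein partners (Nde1 and Dync1i1) and 5 of 22 reelin pathway genes (Crkl, Pik3r2, Pik3ca, Itga3 and Cdh2) passed, and 0 did with any other library left out. A fit that leaves a line with 1 library takes that library to vary like the other line.

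In the fit with a replicate block, 0 genes passed and the p of Dab1 from limma was 0.385 at the same log2 fold change of −1.16; no call changed. With 2 libraries a line, whether the numbers pair the libraries could not be settled. The limit that depth sets on Reln or the receptors was not assessed, since TPM keeps none.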
